A study of Mus musculus with 36 samples.

Results

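Liver DNA methylation was compared between the 3 sires and the 3 dams of the C57BL/6N (B6) strain, 6 of the 24 mice with counts of methylated and unmethylated reads in a series of 36 samples. The members were chosen by their labels alone, as the male and female B6 parents, on the autosomes. CpGs were compared singly and in fixed windows of 500 bp that held at least 5 CpGs and at least 30 counts in every parent. The C3H/HeN (C3) parents, again 3 sires and 3 dams, entered no B6 test and served as a held-out set. The study intercrossed both strains in both directions, with 3 families per cross, and measured liver methylation by whole-genome bisulfite sequencing in parents and in F1 offspring of both sexes.

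The B6 sires had been mated with C3 dams, and their F1 young were called C3B6F1. The B6 dams had been mated with C3 sires and had borne and nursed B6C3F1 young. Parents were mated at an age of 10 weeks, litters were weaned at week 16, and all animals were killed at week 20. The F1 daughters, 3 of each cross, had not been mated, and the 6 F1 sons were their brothers. Sex, breeding history and the direction of the cross therefore cannot be told apart within the B6 parents. All animals carried unmodified inbred or hybrid genomes, and liver was taken whole, so that a shift in the share of a cell type and a change of methylation within cells cannot be told apart either.

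Methylation of a CpG is copied onto the new strand when DNA is replicated, and in liver, loss of methylation at an enhancer or promoter usually accompanies its use by transcription factors. Mouse liver is a sexually dimorphic organ. The pulsatile release of growth hormone in males and its steadier release in females act through the growth hormone receptor and the factor STAT5 on cytochromes P450, sulfotransferases, major urinary proteins and other genes, with BCL6 and CUX2 as sex-biased repressors. Prolactin, which rises in pregnancy and lactation, acts through a related receptor that liver carries as well.

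The 6 stretches that follow, in which B6 sires and dams differed, are printed from the mm9 sequence because the results return to them. Capitals mark the CpGs with counts in the deposited tables, and all are given on the plus strand. Cux2 (chr5:122451124-122451243) encodes a repressor that is more abundant in female liver, and the stretch lies in an intron of this minus-strand gene. AI427809 (chr4:53325685-53325837) is the nearest protein-coding start to an intergenic stretch. The Prlr stretch (chr15:10279584-10279883) lies in an intron of the prolactin receptor gene. Dock1 (chr7:142235530-142235827), also intronic, belongs to a gene for an activator of the GTPase Rac. Pik3c2g (chr6:139801217-139801344) and Elovl3 (chr19:46208551-46208850) overlap coding exons of a lipid kinase and of a fatty acid elongase that is more abundant in male liver.
Cux2: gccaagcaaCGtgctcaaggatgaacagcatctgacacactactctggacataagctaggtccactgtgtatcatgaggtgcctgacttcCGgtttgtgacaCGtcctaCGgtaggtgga
AI427809: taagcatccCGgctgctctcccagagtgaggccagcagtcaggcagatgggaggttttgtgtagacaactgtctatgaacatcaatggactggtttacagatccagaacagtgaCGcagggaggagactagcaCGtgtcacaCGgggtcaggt
Prlr: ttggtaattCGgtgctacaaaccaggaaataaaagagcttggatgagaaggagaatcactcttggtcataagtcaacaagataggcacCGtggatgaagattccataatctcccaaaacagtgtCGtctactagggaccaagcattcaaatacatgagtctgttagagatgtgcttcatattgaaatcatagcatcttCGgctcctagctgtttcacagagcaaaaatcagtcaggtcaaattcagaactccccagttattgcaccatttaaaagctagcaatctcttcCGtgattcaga
Dock1: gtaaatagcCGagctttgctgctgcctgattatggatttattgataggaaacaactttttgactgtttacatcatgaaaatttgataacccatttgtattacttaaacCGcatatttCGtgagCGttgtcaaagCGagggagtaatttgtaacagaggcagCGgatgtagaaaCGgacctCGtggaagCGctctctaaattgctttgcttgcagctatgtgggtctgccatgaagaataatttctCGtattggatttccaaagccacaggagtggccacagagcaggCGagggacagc
Pik3c2g: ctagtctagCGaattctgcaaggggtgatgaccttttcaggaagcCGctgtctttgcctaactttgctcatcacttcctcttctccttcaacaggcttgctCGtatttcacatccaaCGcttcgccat
Elovl3: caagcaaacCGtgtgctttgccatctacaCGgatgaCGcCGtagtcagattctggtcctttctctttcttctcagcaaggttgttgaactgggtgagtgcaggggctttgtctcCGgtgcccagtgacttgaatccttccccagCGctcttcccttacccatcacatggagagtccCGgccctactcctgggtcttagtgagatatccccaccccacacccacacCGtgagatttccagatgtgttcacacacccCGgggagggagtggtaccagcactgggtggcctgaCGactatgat

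Within these stretches most CpGs, but not all, separated the B6 sires from the B6 dams. In Cux2 the first capital pair was 94.7% ± 2.09 methylated in sires and 20.6% ± 4.69 in dams (SD, n = 3 each), and all 4 CpGs shown separated the 3 sires from the 3 dams. All 11 CpGs of Dock1 did so in the opposite direction, and the fifth was 24.04% ± 10.0 methylated in sires and 98.1% ± 1.66 in dams. The ninth Dock1 CpG had a smaller gap, with 58.3% ± 21.7 in sires and 98.2% ± 1.57 in dams. In Prlr the first CpG did not separate the animals, with 84.8% ± 7.21 in sires and 83.4% ± 8.20 in dams, while the fifth was 87.5% ± 4.63 in sires and 28.6% ± 9.89 in dams. Of the 10 CpGs shown in Elovl3, the sixth overlapped between sires and dams and the other 9 did not.

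The tables held between 21.8 and 32.3 counts per autosomal CpG in the B6 sires and between 25.7 and 32.1 in the B6 dams. Depth on chromosome X relative to the autosomes was 0.477 to 0.501 in sires and 0.893 to 0.953 in dams, a ratio that matched the labelled sex of all 6. Start sites of 12 hepatocyte marker genes were methylated at 22.1 to 30.2% in the 6 animals. Those of Kupffer cell markers had 67.3 to 69.5% and those of leukocyte markers 76.2 to 78.1%. Cholangiocyte markers, with 20.4 to 22.25%, and stellate cell markers, with 21.8 to 24.2%, were low as well. A low level was therefore not particular to hepatocyte markers. Over all autosomal counts the sires lay 1.38 points above the dams, the same way on all 19 chromosomes, by 1.23 to 1.61 points. In the held-out C3 parents this depended on which CpGs were counted. Over all counts their sires lay 0.314 points above their dams, with overlap (exact two-sided permutation p = 0.5), and over the tested windows the difference was -0.169 points in C3 against 1.34 in B6. With 3 animals against 3 this exact test cannot go below p = 0.1, which is what it gave for B6. As a plain mean over CpGs covered in all 6 B6 animals, the B6 sires had 74.4% ± 0.316 and the dams 73.7% ± 0.0998. This difference of 0.684 points was without overlap. No such mean is given for C3, since CpGs without counts in a C3 animal would have entered it as 0%. Over the counts at CpGs with at least 10 counts in each B6 animal, C3 sires had 78.2% ± 0.135 and C3 dams 77.7% ± 0.314, without overlap. The share of counts that fell in windows under 20% methylated was 8.30 to 9.05% in sires and 9.28 to 10.1% in dams, without overlap, and the part of this in the overall difference was not tested.

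Of the 1459337 windows tested, 564 were more methylated in B6 sires and 914 more methylated in B6 dams. A window was called where limma, fitted to the log2 of methylated over unmethylated counts, gave a Benjamini-Hochberg adjusted p under 0.05 and the group means differed by at least 20 percentage points. Calls were rare: 0.0386% of all windows were higher in sires and 0.0626% higher in dams, 0.101% in all. The median level over the 564 windows was 69.7% in sires and 42.7% in dams, and over the 914 windows it was 45.8% in sires and 74.5% in dams. The 3 sires and 3 dams did not overlap in any called window, which is no further support, since the same values made the calls. Over all windows tested, 9.17% separated the animals with sires higher and 4.78% with dams higher. The calls formed 487 loci with higher sires and 797 with higher dams when windows within 2 kb were joined, and 431 and 720 of these were single windows. The most windows in any locus was 6, at Scara5 (chr14:66336501-66341500), Ttc39c (chr18:12846001-12850000) and Cyp2c69 (chr19:39956501-39961000).

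Among windows higher in sires, the largest differences lay in an intergenic stretch far from the start of AI427809, in Cux2, 23.4 kb from the start of Nkx1-1 and in A1bg, in this order. At AI427809 (chr4:53325501-53326000, intergenic, 50.1 kb from the start) the sires had 79.8%, 81.6% and 82.6% and the dams 17.3%, 25.0% and 23.8%. At Cux2 (chr5:122451001-122451500, intron) the sires had 80.3%, 87.0% and 75.3% and the dams 27.5%, 17.1% and 23.0%. Every sire stood far above every dam at both. On the log2 scale of the test the differences were 3.90 ± 0.21 (SE) at AI427809 and 3.84 ± 0.26 at Cux2, with limma adjusted p of 2.57e-08 and 3.05e-07. At A1bg (chr15:60751501-60752000, exon), the gene of a secreted plasma glycoprotein, sires had 87.0%, 89.6% and 90.5% and dams 30.7%, 34.5% and 40.4%. At Hamp2 (chr7:31706501-31707000), 2.20 kb from the start of a hepcidin family gene, sires had 86.5%, 86.1% and 88.5% and dams 35.3%, 39.5% and 38.5%. The remaining loci of the 12 largest were named for Nkx1-1, a homeobox gene (77.2% ± 2.84 in sires and 19.2% ± 1.64 in dams), B3galt1, BC089597, Myst4, a histone acetyltransferase gene, Wdr20a, Inhbb, which encodes a subunit of activin B, Mtap6 and Camk1d. Their differences ranged from 48.7 to 58.0 points. Only windows without overlap of sires and dams could enter the 12.

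Among windows higher in dams, the largest difference lay 12.4 kb from the olfactory receptor gene Olfr46 (chr7:147808501-147809000). The sires had 27.9%, 23.1% and 31.8% there and the dams 94.3%, 88.4% and 91.0%. In the exon window of Pik3c2g (chr6:139801001-139801500) the sires had 19.05%, 21.2% and 15.9% and the dams 80.6%, 79.8% and 77.4%. Both groups were tight and far apart, and the log2 difference at Pik3c2g was -4.00 ± 0.21 (SE; limma adjusted p = 2.40e-08). At Dock1 (chr7:142235501-142236000, intron) the sires had 32.3%, 29.1% and 25.1% and the dams 91.0%, 88.5% and 86.4%. At Sntg2 (chr12:31026501-31027000, intron), a syntrophin gene, they had 32.6%, 31.8% and 34.4% against 89.9%, 85.7% and 85.5%. Oma1, the gene of a mitochondrial protease, Cdcp2, Dap, Mycbp2, Arhgap23 and 2 loci of Ttc39c, a gene with tetratricopeptide repeats, made up the rest with a window near Gm5077, with differences of -61.0 to -49.4 points. The Gm5077 window needs care, since sires had 3.09 times the depth of dams there, against a median ratio of 1.02 over all windows, and Mycbp2 had a ratio of 1.48. Of the called windows, 1 with higher sires and 3 with higher dams had a ratio above 1.5.

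**Figure D1:**
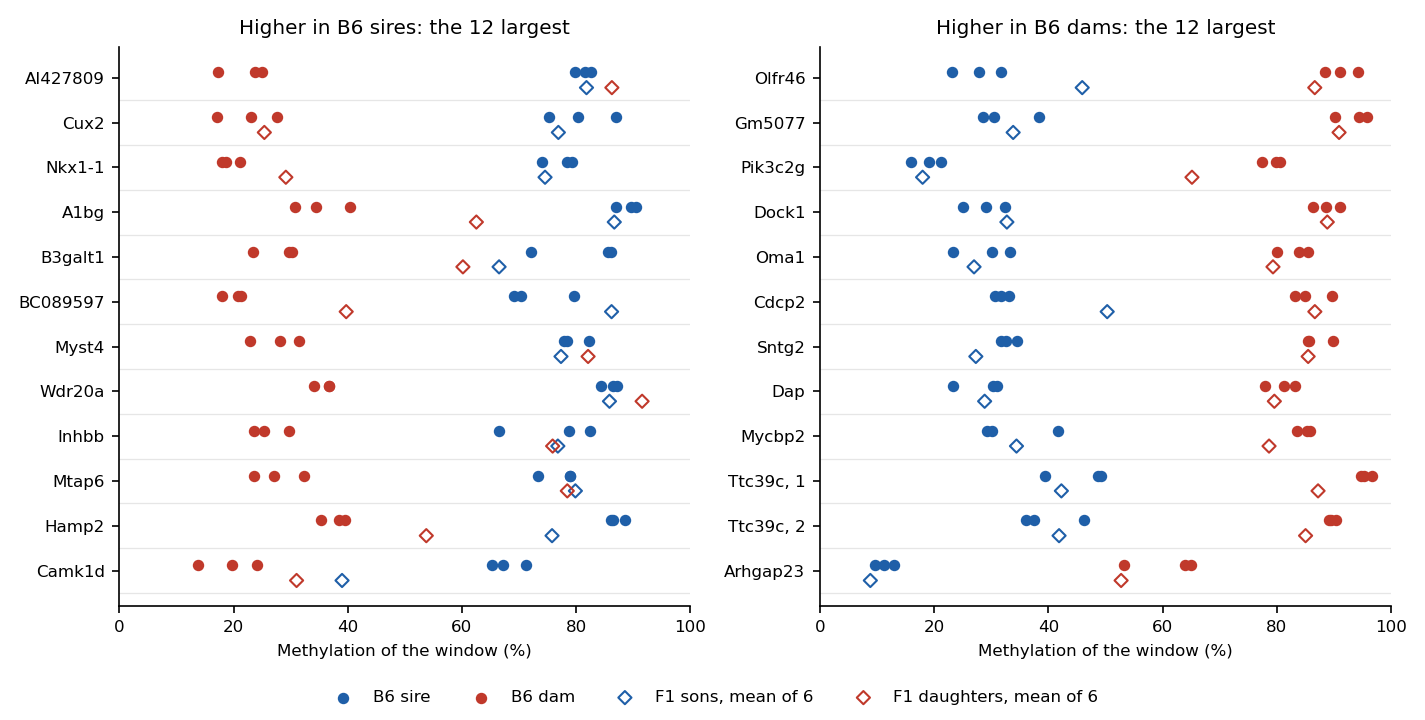
Percent methylation (horizontal axis) of the window with the largest difference in each of the 12 loci with the largest differences per direction, named at the left by overlapping or nearest gene. Filled points are single B6 sires (blue) and dams (red), and open diamonds are means of the 6 F1 sons (blue) and 6 F1 daughters (red). Sires and dams are apart at all 24 windows by the rule that picked them. The F1 daughters sit with the B6 sires at AI427809, Myst4, Wdr20a, Inhbb and Mtap6 but near the B6 dams in the right panel.

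The held-out C3 parents differed the same way at nearly all of these windows. At the windows higher in B6 sires, C3 sires exceeded C3 dams in 556 of 564 (98.6%, against 60.1% of all windows), and the median C3 difference was 20.8 points against 0.552 over all windows. At those higher in B6 dams, C3 dams were higher in 898 of 914 (98.2%, against 39.9%), with a median of -25.4 points. The C3 parents alone gave calls at 293 (52.0%) and 597 (65.3%) of them in the same direction, where C3 calls made up 0.0515% and 0.0959% of all windows (0.147% together), and at 0 windows in the opposite direction. C3 sires and dams did not overlap at 492 of the 564 and 849 of the 914 in that direction, against 9.43% and 4.44% of all windows.

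The F1 animals split the calls by direction. At the windows higher in B6 dams, F1 sons had a median level of 48.0% and F1 daughters 71.1%, near the B6 sires and dams, and 501 windows (54.8%) were called higher in daughters, against 0.0474% of all windows. At the windows higher in B6 sires, sons had 68.5% but daughters 60.9%, and 45 windows (7.98%) were called higher in sons, against 0.00356% of all windows. The median F1 difference was 4.81 points there and -20.8 points at the windows higher in dams. The level of F1 daughters was nearer to the B6 sires than to the B6 dams at 351 of the 564 windows (62.2%). This held at 71 of the 914 (7.77%) and at 50.4% of all windows tested. F1 sons were nearer to the B6 sires at 525 (93.1%) and 848 (92.8%), against 52.9% of all windows.

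The difference between the parental and the F1 effect was tested as an interaction in limma. The B6 effect exceeded the F1 effect in the direction of higher sires at 159 of the 564 windows (28.2%, against 0.0122% of all windows), and in the direction of higher dams at 4 of the 914 (0.438%, against 0.00048%). Because these windows were picked for a large B6 difference, the same test was made with the C3 parents in place of B6. It called 123 of the 564 (21.8%, against 0.0182%) and 7 of the 914 (0.766%, against 0.00192%). F1 animals carry both genomes, and the daughters differ from the dams in genotype, generation and breeding history together, so these cannot be told apart. Of the 293 windows higher in sires of both strains, 254 were not called in the F1 animals and 39 were, while of the 597 higher in dams of both strains, 152 were not and 445 were.

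**Figure D2:**
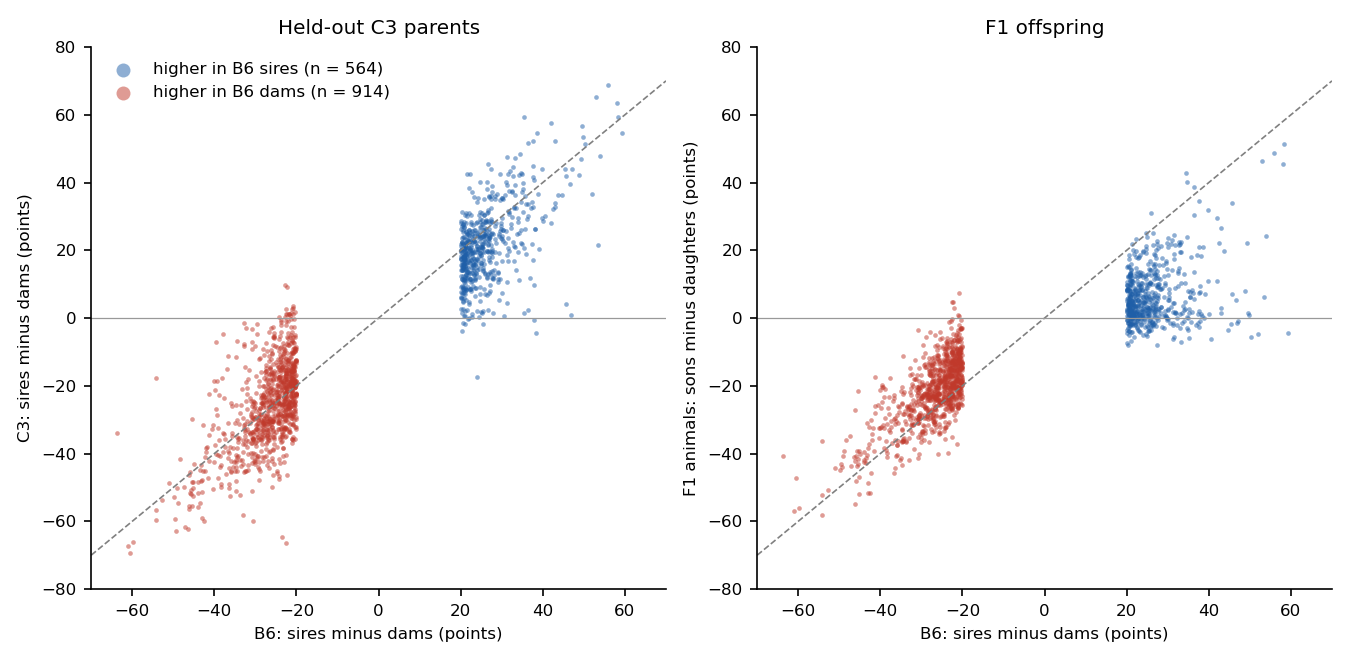
Difference in percent methylation between the sexes in C3 parents (left) and in F1 offspring (right) against the B6 difference, for the 1478 windows called in B6. Each point is a window, blue where B6 sires were higher and red where B6 dams were higher, and the dashed line marks equal differences. Both groups of points follow the line for C3 parents (medians 20.8 and -25.4 points), while for F1 animals the blue points lie near 0 (median 4.81 points).

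**Figure D3:**
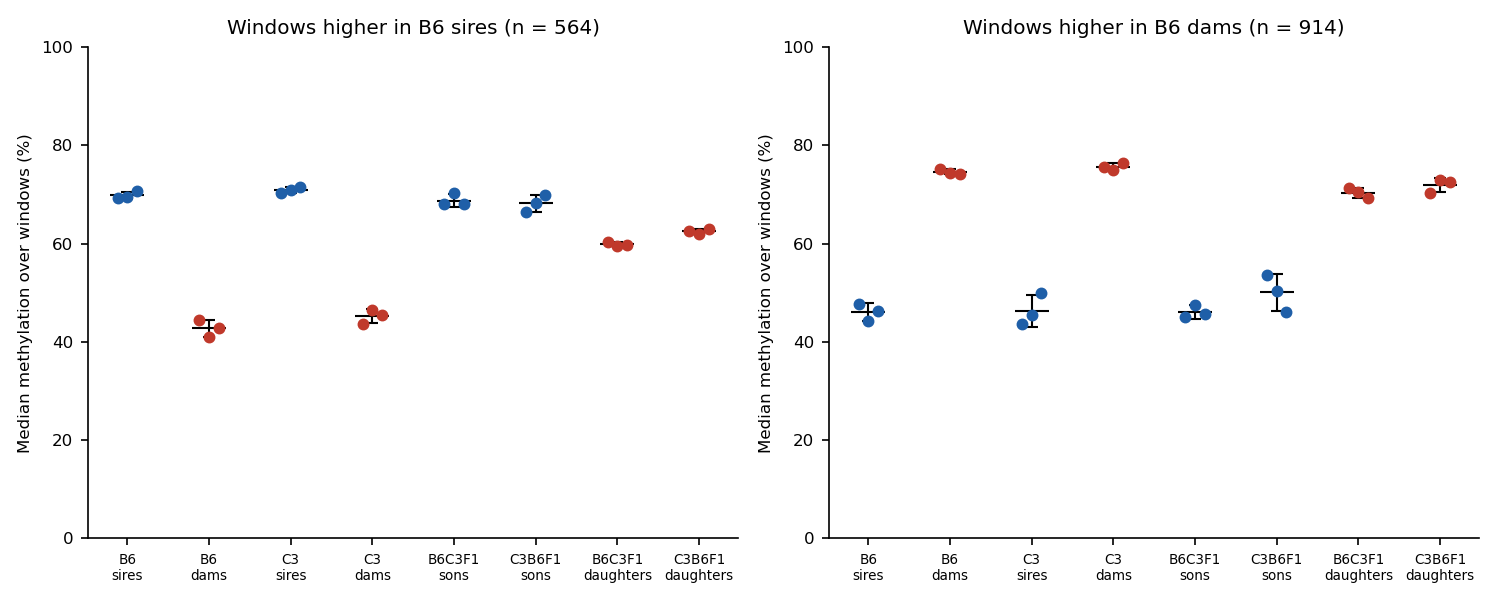
Median percent methylation over the windows higher in B6 sires (left, 564) and higher in B6 dams (right, 914) in each of the 24 animals, by group. Points are single animals (blue males, red females) and bars the mean and SD of 3. In the left panel the dams of both strains lie between 41.0 and 46.5% and the F1 daughters between 59.5 and 62.9%, while in the right panel the F1 daughters lie at 69.2 to 73.0%, below but near the dams.

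The windows with parental differences that the F1 did not share included several of the largest. At AI427809 the F1 daughters had a mean of 86.3% and the F1 sons 81.8%, and the B6 effect exceeded the F1 effect by 63.7 points (limma adjusted p = 7.85e-09). At Wdr20a the B6 sires had 86.0% ± 1.43, the dams 35.8% ± 1.54 and the F1 daughters between 89.4 and 93.9%. At Inhbb and Mtap6 the daughters had 75.9% and 78.5%, close to the sons' 76.8% and 79.9%. Cux2 did not follow this pattern, as F1 daughters had 25.4% against 76.9% in sons, and the difference between the B6 and the F1 effect was 6.78 points with a limma adjusted p of 0.938.

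Where genes that are more abundant in female mouse liver had called windows, nearly all of these were higher in sires. At genes more abundant in male liver, all called windows were higher in dams. These lists were chosen with earlier results of the data known and are given as counts without a test. Of 35 female-predominant genes with a tested window in the gene or within 5 kb, 11 (31.4%) had a window called higher in sires and 1 (2.86%) a window called higher in dams. Of 33 male-predominant genes, 0 had a window higher in sires and 13 (39.4%) a window higher in dams. Most genes, 23 of the first list and 20 of the second, had no called window. Over all 20597 protein-coding genes with a tested window the shares were 1.55% and 2.52%. All 36 female-list windows higher in B6 sires and all 28 male-list windows higher in B6 dams went the same way in the C3 parents and in the F1 animals. The F1 animals gave calls at 16 of the 36 and 17 of the 28. They did so at 7.98% of all windows higher in B6 sires and 54.8% of all those higher in B6 dams. Of all windows tested, 0.00356% were called higher in sons and 0.0474% higher in daughters.

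The female-predominant genes with windows higher in sires were the cytochrome P450 genes Cyp2a4, Cyp2b9, Cyp2b13, Cyp2c40, Cyp2c69 and Cyp17a1, and A1bg, Cux2, Hamp2, the thioesterase gene Acot3 and the HMG-box gene Tox. Ntrk2, a neurotrophin receptor gene of the same list, had its called window in the opposite direction, with -21.2 points. Cyp2c69 had called windows at 6 of 7, and its mean level over all 7 was 88.6%, 89.6% and 85.4% in the sires and 59.8%, 61.1% and 60.4% in the dams. Cyp2a4, whose product hydroxylates testosterone, had 5 of 12, with means of 76.5%, 75.6% and 79.4% in sires and 62.3%, 61.1% and 63.8% in dams. In both genes every sire was above every dam. These P450 genes have near-identical neighbours, so that reads may be shared among copies and single values are uncertain. A1bg had 4 of 10 windows, in a row over its exons. Dams had 63.1%, 57.5%, 35.2% and 55.7% there on average and F1 daughters 84.2%, 76.0%, 62.5% and 73.1%. At the third, F1 sons had 86.7%, 24.2 points above the daughters (limma adjusted p = 2.09e-05). None of these windows passed the interaction test of the B6 against the F1 effect (limma adjusted p of 0.0578, 0.648, 0.165 and 0.845).

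The male-predominant genes with windows higher in dams were Cyp2d9, Cyp7b1, Cyp2u1, Elovl3, Selenbp2, C4a, Gstp1, Moxd1, Susd4, Serpina1e, Mup3, Mup7 and Egfr. In the exon window of Cyp2d9 (chr15:82284001-82284500), a steroid hydroxylase gene, the sires had 38.7%, 44.6% and 34.9% and the dams 88.6%, 90.04% and 84.7%. In Elovl3 (chr19:46208501-46209000) they had 31.0%, 30.7% and 32.7% against 77.3%, 77.8% and 74.6%, over 14 CpGs. At Gstp1 (chr19:4034501-4035000), a glutathione transferase gene, they had 50.9%, 41.8% and 37.3% against 85.6%, 80.7% and 84.6%. No sire overlapped a dam at any of them, and the limma adjusted p were 1.66e-07, 3.05e-07 and 3.64e-06. At these windows the F1 daughters had 74.3%, 75.5% and 91.2%, on the side of the dams. The call at Cyp7b1 was lost without sire 2, without dam 2 and at equal depth. Cyp2d9, Gstp1, Serpina1e and the Mup genes belong to families of near-identical copies, and their values are uncertain in the same way.

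**Figure D4:**
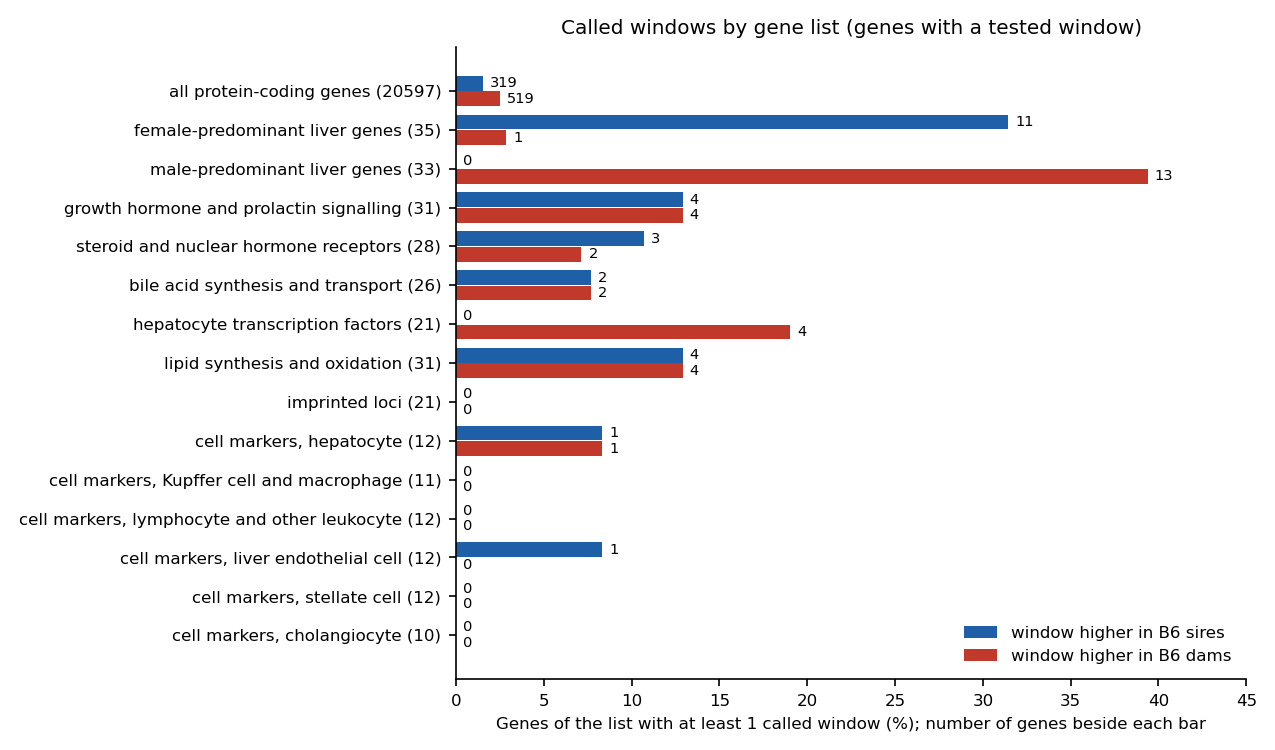
Share of the genes of each list (number of genes with a tested window in brackets) that had at least 1 window called higher in B6 sires (blue) or in B6 dams (red), with the number of genes beside each bar. All protein-coding genes stand at 1.55% and 2.52%, the female-predominant list at 31.4% and 2.86%, and the male-predominant list at 0 and 39.4%.

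The prolactin receptor gene Prlr had called windows spread over much of its length, with others between them that differed little. Prlr (chr15:10106993-10303504, plus strand) had 110 tested windows in the gene and 5 kb around it, of which 16 were called higher in sires, against 0.0386% of all windows, and 0 higher in dams. At 92 the sires had the higher mean, where the median difference over all windows was 0.454 points. The mean over all 110 was 75.2%, 75.4% and 76.4% in the sires and 67.9%, 66.4% and 67.4% in the dams. The 3 sires were above the 3 dams, by 8.41 points on average, and the called windows spanned 170.5 kb. All called windows were intronic, with differences of 20.1 to 36.4 points. The C3 parents had 75.1 to 75.4% in sires and 67.3 to 68.8% in dams, with 18 calls higher in sires (0.0515% of all windows). F1 sons had a mean of 74.7% and F1 daughters 72.0%, with 2 windows called higher in sons (0.00356% of all windows).

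The called Prlr window with the smallest adjusted p was chr15:10279501-10280000, which holds the stretch printed above. The sires had 88.7%, 89.4% and 89.1% there and the dams 61.6%, 58.3% and 56.7%, with a log2 difference of 2.46 ± 0.20 (SE; limma adjusted p = 3.24e-06). The F1 daughters had 83.3 to 89.9%, above all B6 dams and with a median of 86.7%, and the sons had 89.4 to 93.5%. The largest difference was at chr15:10136001-10136500, where sires had 49.4%, 63.9% and 62.6% and dams 20.8%, 25.3% and 20.4%. F1 daughters there had 28.4 to 42.2%, between the groups. The B6 effect exceeded the F1 effect at 3 of the 16 windows in the interaction test, by 20.4 to 25.0 points, and the others did not pass it. Of all windows higher in B6 sires 28.2% passed it, and of all windows tested 0.0122%, so that passing was not particular to Prlr.

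Ttc39c was the gene with the most called windows in the opposite direction. Of 139 windows in and around it (chr18:12758435-12895559), 40 were called higher in dams, over 105.0 kb, against 0.0626% of all windows. The mean over all 139 was 59.2%, 57.6% and 59.9% in sires and 71.9%, 71.3% and 71.9% in dams. C3 parents and F1 animals gave 53 and 46 calls, against 0.0959% and 0.0474% of all windows, and the mean differences were -12.8 points in B6, -16.4 in C3 and -14.2 in F1 animals. The neighbouring gene Cabyr had 6 called windows, of which 3 lie within 5 kb of Ttc39c and are among its 40. Scp2, the gene of sterol carrier protein, had 10 of 91 windows called higher in dams, Scara5, a ferritin receptor gene, 9 of 100, and Nudt7, the gene of a peroxisomal coenzyme A diphosphatase, 6 of 19.

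**Figure D5:**
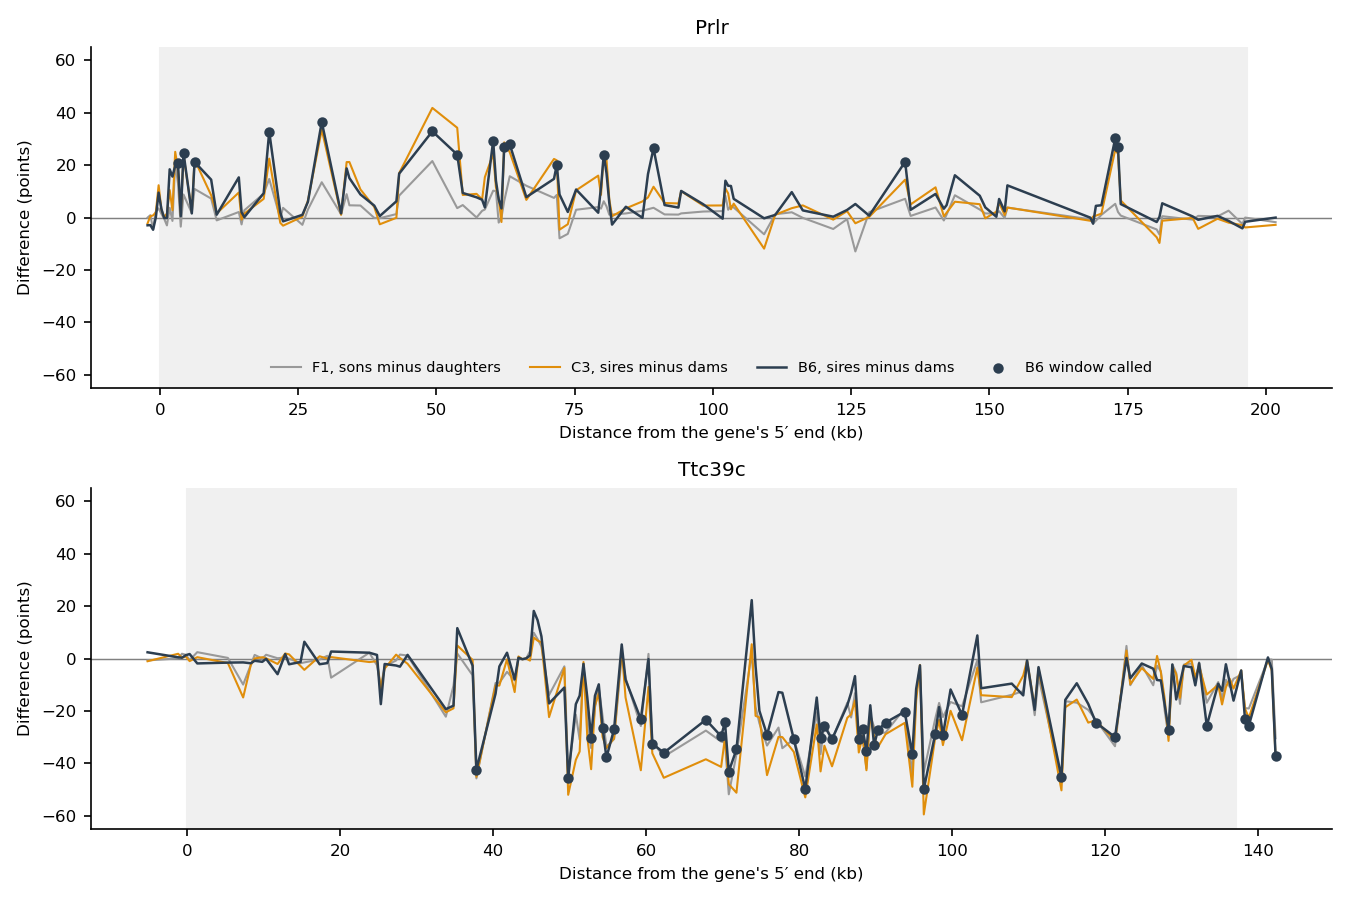
Difference in percent methylation between the sexes (vertical axis, points, males minus females) for tested windows by distance from the 5′ end of Prlr (top) and Ttc39c (bottom), with the gene shaded. Lines are B6 parents (dark), C3 parents (orange) and F1 animals (grey), and dots are the windows called in B6, 16 in Prlr and 40 in Ttc39c. The F1 line lies near 0 over most of Prlr (mean 2.65 points) but runs with the parental lines over Ttc39c (mean -14.2 points).

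In the list of growth hormone and prolactin signalling, most called windows higher in sires were those of Prlr and Cux2. Of its 31 genes, 4 (12.9%) had windows higher in sires and 4 (12.9%) windows higher in dams, against 1.55% and 2.52% of all genes. The windows higher in dams were 0.196% of its windows, against 0.0756% over all protein-coding genes. The growth hormone receptor gene Ghr had a window 0.144 kb from a start site (chr15:3421001-3421500) with 87.1%, 86.4% and 86.5% in sires and 51.2%, 45.2% and 50% in dams. It passed at a limma adjusted p of 7.14e-07. The F1 daughters there had 77.0 to 83.3% and the sons 75.5 to 82.7%, so that the dams stood apart from all of them, and the B6 effect exceeded the F1 effect by 38.6 points (limma adjusted p = 1.36e-06). Ghr also had an intronic window in the opposite direction (chr15:3454501-3455000), with 56.2% in sires and 76.8% in dams (limma adjusted p = 0.0192). Socs7, Sh2b1 and Stat3 had windows higher in dams, with -27.5, -26.5 and -22.6 points. Stat5a, Stat5b, Jak2, Socs3 and Igf1 had no called window.

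Other hormone and metabolic lists held fewer called windows than the sex-biased lists. Of 28 steroid and nuclear hormone receptor genes, 3 (10.7%) had windows higher in sires and 2 (7.14%) higher in dams, against 1.55% and 2.52% of all genes. These genes are long, with a median of 65.5 tested windows against 27, and 0.0892% of their windows were called each way, near the 0.0475% and 0.0756% over all protein-coding genes. Ppard, the gene of a lipid-sensing receptor, had an intronic window (chr17:28390001-28390500) with 85.6%, 85.9% and 87.4% in sires and 54.8%, 46.5% and 51.0% in dams. The F1 daughters had 80 to 88.7%, with the sires rather than the dams. Nr5a2, which encodes a regulator of bile acid genes, had 1 of 160 windows called higher in dams (92.8% ± 3.84 against 63.4% ± 11.6 in sires). Rora, a circadian receptor gene, had 2 of 764, with 81.5% ± 3.37 in dams and 57.0% ± 2.88 in sires at the one with the smaller adjusted p, and the mean over all windows of either gene differed by under 1 point. In the bile acid list, with 2 of 26 genes (7.69%) and 0.234% of windows each way, the transporter gene Abcc4 had 2 of 360 windows called higher in sires, the stronger with 65.4% ± 5.78 in sires and 40.3% ± 3.80 in dams. Cyp8b1, the sterol hydroxylase gene that sets the make-up of bile acids, had 1 of 17 windows called higher in dams, with 40.5% ± 7.14 in sires and 64.6% ± 2.59 in dams.

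All called windows at hepatocyte transcription factor genes were higher in dams. They were 7 windows at 4 of 21 genes (19.05% of genes against 2.52% of all genes), with 0 genes higher in sires, where 1.55% of all genes were. These genes are long, with a median of 54 tested windows against 27. By window the share was 0.364%, against 0.0756% over all protein-coding genes. Nfib, a nuclear factor I gene with 3 of 402 windows called, had at the strongest 55.6%, 35.6% and 43.3% in sires and 80.3%, 80.8% and 78.6% in dams, a wide spread among sires without overlap. Foxa3, a forkhead gene, had 31.3% ± 3.66 in sires and 54.3% ± 5.58 in dams, a call lost without sire 2 or without dam 1. The C3 parents gave calls at 5 of the 7 windows and the F1 animals at 6. For comparison, they gave calls at 65.3% and 54.8% of all windows higher in B6 dams. Of all windows tested, 0.0959% were called higher in C3 dams and 0.0474% higher in F1 daughters. Of 31 lipid genes, 4 (12.9%) had windows in each direction, against 1.55% and 2.52% of all genes. They had a median of 48 tested windows against 27. By window the share was 0.254% each way, against 0.0475% and 0.0756% over all protein-coding genes. The genes with calls included Acacb, an acetyl-CoA carboxylase gene (63.0% ± 5.63 in sires and 30.5% ± 1.63 in dams), Pnpla3, a lipase family gene, and Me1, the gene of malic enzyme. The call at Pnpla3 was lost without dam 2, and that at Me1 when animals were thinned to equal depth. Of 21 imprinted loci with tested windows, none had a called window, near the background of 1.55% and 2.52% of all genes, and their start sites averaged 48.4% ± 0.906 in sires and 48.7% ± 0.815 in dams.

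Marker genes of liver cell types had 3 genes with calls among 6 lists. Each of these lists held at most 1 gene called in either direction, of 10 to 12 genes with tested windows, beside 1.55% and 2.52% of all genes. Alb, the albumin gene, had 2 windows higher in sires, with 41.9% ± 4.00 in sires and 19.3% ± 5.75 in dams at the one with the smaller adjusted p, and with 47.8% and 27.3% at the other. The call at the first was lost without sire 2 or without dam 2. Ttr, the transthyretin gene, had 1 window with 28.0% ± 5.83 and 55.8% ± 4.63, and the endothelial Fc receptor gene Fcgr2b 1 with 60.3% ± 4.15 and 23.2% ± 0.971. Hepatocyte marker start sites were 28.9% ± 1.73 methylated in sires and 23.7% ± 1.40 in dams, without overlap, a gap that was 0.403 points in C3 parents. Those of Kupffer cell, leukocyte, endothelial, stellate and cholangiocyte markers differed by -1.19 to -0.151 points, and sires and dams overlapped in each. The part of cell type shares in the called windows was not tested.

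Few windows passed the test of whether the difference between sires and dams was unlike in B6 and C3. The limma interaction called 14 windows (0.000959% of all), and 4 of these were among the B6 calls. Not passing does not show that the strains were alike. The limma interaction p before adjustment was under 0.05 at 24.5% of windows higher in B6 sires and 23.0% of those higher in B6 dams, against 5.43% of all. Those windows were picked for a large B6 difference, which may raise these shares. Srgap3 had a window (chr6:112823001-112823500, intron) with 59.8%, 57.9% and 52.6% in B6 sires and 18.0%, 15.2% and 23.4% in B6 dams, where C3 sires and dams had 68.4% and 69.0%. Abca17 (chr17:24402001-24402500), a transporter gene, had 65.2%, 67.1% and 73.9% in B6 sires and 35.9%, 27.0% and 28.2% in B6 dams, where C3 sires and dams had 17.8% and 22.3%. Both passed with limma adjusted p of 0.0285. Uhrf1bp1l was the other with higher B6 sires (34.4% against 10.4%), and there the C3 parents went the opposite way, with 10.03% in sires and 27.5% in dams and no overlap. Near Gpr12 dams were higher in both strains, by 23.6 points in B6 and by 64.7 in C3.

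Called windows lay more often in introns, and on average nearer to start sites, than windows drawn from those tested. Introns held 48.6% of windows higher in sires and 47.8% of those higher in dams, against 37.5% of 20000 windows drawn at random. The median distance to a protein-coding start was 18433 bp and 21335 bp, against 30498 bp, and 62.8% and 68.9% were over 10 kb away, against 73.7%. Within 1 kb of a start lay 7.62% and 3.94%, against 5.87%. Calls by level are a description only, since the level was the mean of F1 sons and daughters, who differ at many of these windows, and a window near 0 can hardly differ by 20 points. Of windows at 40 to 60% in the F1 animals 0.252% were called higher in sires and 0.550% higher in dams, and of the 48728 windows under 10% none was called. Windows with 26 or more CpGs had 0 calls with higher sires and 4 with higher dams among 28166. Mean GC content was 48.4% at windows higher in sires, 44.7% at those higher in dams and 46.3% over all.

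Of 12 short sequence motifs searched, those with the widest gaps between the directions are given with some that were nearly level. They were counted on both strands of each 500-bp window. ATCAAT, part of the sequence bound by HNF6 and CUX2, was present in 31.8% of windows higher in dams and 14.7% of those higher in sires, against 17.0% of all windows. The STAT5 letters TTCNNNGAA were in 23.7%, 15.4% and 15.7%. The E-box CAGCTG was in 18.5% of windows higher in dams and 46.1% of those higher in sires, against 22.5%. TGTTTAC, a forkhead motif, was in 9.30% and 9.93%, against 7.05%, and TTGCNNAA, a C/EBP motif, in 26.1% and 22.2%, against 19.7%. The other 6 motifs were each in under 5% of windows in every set. CAGCTG is a case of the wider E-box CANNTG, which was in 91.7%, 97.9% and 93.8%. No difference was tested, the counts were not adjusted for GC content, and a match describes letters, not binding.

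Single CpGs of the same 6 B6 animals were tested as well. The Wald test gave 8060 differentially methylated CpGs (DMCs, p under 1e-05 without adjustment) of 18553609 tested (0.0434%), 2529 higher in sires (0.0136%) and 5531 higher in dams (0.0298%). Runs of these formed 140 differentially methylated regions (DMRs), 57 higher in sires and 83 higher in dams, with a median length of 204 and 223 bp. The smallest difference of any DMR was 33.6 points, well above the minimum of 20, so that DMRs hold the larger differences only. For these same B6 animals the study reported slightly fewer DMCs but far more DMRs from DSS itself. The DMRs given here are therefore not a full list, and the reason for the gap was not tested. These counts depended on the number of animals and on the settings: 75 to 90 DMRs were left without any 1 of the 6 animals, and smoothing gave 3183 DMCs and 180 DMRs. Of the 57 and 83 DMRs of the main test, 55 (96.5%) and 72 (86.7%) overlapped a called window of the same direction. In turn, 64 (11.3%) of the windows higher in sires and 81 (8.86%) of those higher in dams overlapped such a DMR. Both tests rest on the same counts, so the overlap is no further support. C3 parents went the same way at 57 of 57 and 81 of 83.

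The DMRs with the largest differences for higher sires lay in an exon of A1bg and in intergenic DNA with the nearest starts those of Nkx1-1 and AI427809. For higher dams they lay in an intron of Dock1 and in intergenic DNA with the nearest starts those of Dusp6 and Olfr46. At A1bg (chr15:60751819-60752001, 6 CpGs) the sires had 83.5%, 91.7% and 88.9% and the dams 20.2%, 23.3% and 30.2%. At the intergenic DMR 21.1 kb from Dusp6, a phosphatase gene of the MAP kinase pathway (chr10:98746938-98747028, 5 CpGs), the sires had 25.9%, 28.1% and 19.01% and the dams 92.1%, 88.1% and 84.8%. There the C3 sires and dams had 92.3% ± 4.75 and 91.1% ± 4.14, and F1 sons and daughters 43.5% and 81.4%. The B6 sires alone among the parents were low at this DMR, whose difference between strains was not tested on the DMR itself. The called window that overlaps it at Dusp6 (chr10:98746501-98747000) had 21.0% in B6 sires and 64.3% in dams, and 36.8% and 80.2% in C3, and did not pass the test of a difference between strains (limma adjusted p = 0.998).

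Among genes carried over from earlier results, Gm4956 had 0 called windows, with 78.5% ± 1.80 in sires and 84.8% ± 1.42 in dams at its strongest window (limma adjusted p = 0.439). Adcy1, an adenylyl cyclase gene, had 3 of 138 windows called higher in sires, against 0.0386% of all windows. The exonic one (chr11:7050501-7051000) had 88.4%, 84.9% and 89.5% in sires and 56.2%, 43.7% and 56.5% in dams. Angptl2, the gene of a secreted angiopoietin-like protein, had 3 of 54 windows called higher in sires. At chr2:33083501-33084000 the sires had 90.3%, 91.1% and 89.2% and the dams 59.7%, 57.9% and 57.0%. F1 daughters had 71.2 to 82.5% and 88.8 to 92.1% at these windows, above every B6 dam. The B6 effect exceeded the F1 effect at both, by 29.3 and 30.6 points (limma adjusted p of 0.0239 and 0.000163). The other called windows of these genes did not pass that test, with limma adjusted p of 0.640 and 0.0823 in Adcy1 and 0.0554 and 0.127 in Angptl2.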

How the data were processed

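Counts of methylated and of unmethylated reads per CpG and animal are those the authors deposited, both strands together. Per the submitters' processing notes and the study's methods, the authors aligned quality-filtered reads with Bismark 0.7.8 and Bowtie 0.12.8 to mm9 with the phage lambda genome, after base calling with CASAVA 1.8.2, removed duplicates, clipped read ends, merged the libraries of an animal and kept CpGs present in mm9 and both strains. Picard 1.110 is also listed. All 48 count columns were used, and 0 per-sample count columns were not. Samples of FOXA1 ChIP were not analysed here.

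Of 4254058 autosomal windows of 500 bp with a CpG, 1496157 had at least 5 CpGs and 1459337 also at least 30 counts in each of the 12 parents. limma 3.58.1 (R 4.3.3) was fitted to log2((methylated + 1)/(unmethylated + 1)) with trended and robust variances, on B6 animals for the B6 test, C3 animals for the C3 test, and F1 animals for the F1 test. Interactions of B6 with C3 were fitted over the 12 parents and those with F1 over all 24 animals. A percentage is read off the counts in a window, and its precision therefore depends on their number. DMCs came from a beta-binomial Wald test written after DSS, without smoothing (at least 5 counts in at least 2 animals per group), and DMRs from runs of at least 3 CpGs with 75% DMCs over at least 50 bp, merged within 100 bp, with at least 5 CpGs and 20 points. Genes were those of the GENCODE annotation of mm9, extended by 5 kb.

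Named were the 12 loci per direction with the largest difference among windows with at least 10 counts per CpG and animal and no overlap, up to 3 genes per list with the smallest adjusted p of a called window, 8 genes carried over from earlier results (Prlr, A1bg, Gm4956, Pik3c2g, Dock1, Sntg2, Adcy1 and Angptl2), and 3 DMRs per direction. Genes with the most called windows, other members of the lists and the stretches printed were added after values were seen. Members, lists and rules were chosen with earlier results of these data known, and the F1 tests and interactions with F1 were added after the data were seen. Alternatives were another pseudocount, the arcsine scale, edgeR 4.0.16, quantile normalization, animal medians set equal, thinning to the shallowest animal, other count, CpG, window and difference limits, all 24 animals or the 12 parents in the fit, the replicate number as a block, leaving out each animal, and for DMCs and DMRs other thresholds and smoothing.

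The scripts for limma and for the Wald test with DMRs were tested on simulated data.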

Additional observations from a re-analysis of the deposited data

Results flagged for a closer look

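At 14 windows the difference between sires and dams was unlike in the B6 and C3 parents. These passed the limma interaction at an adjusted p under 0.05 and at least 20 points. The B6 difference minus the C3 difference was 41.8 points near Tram2, 41.4 near Oma1, 41.2 near Gpr12, 38.5 in Srgap3, 42.4 near Nudt7, 24.3 near Irf2bp2, 41.5 in Uhrf1bp1l, 39.7 near Srek1, 42.8 in Abca17 and 35.6 near Hrh4. It was -41.3 points near Leprot, -38.2 in Snd1, -39.6 near Med9 and -33.0 in Gprc5c. At 7 of the 14 the B6 parents differed by under 5 points and the C3 parents by more: near Tram2 the B6 sires and dams had 90.5% and 88.1% and the C3 sires and dams 38.6% and 78.0%, and near Srek1 they had 93.7% and 94.0% against 55.3% and 95.3%. Srgap3 and Abca17 had called differences in B6 where C3 sires and dams overlapped, and at Uhrf1bp1l the C3 parents went the opposite way without overlap (10.03% in sires and 27.5% in dams). Snd1 was the densest, with 68 CpGs, and there B6 dams were higher (51.5% against 32.2%) while C3 sires were higher (39.1% against 20.2%).

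At 8 of the 12 largest windows with higher B6 sires, the B6 parents' difference exceeded that of the F1 animals in the same kind of test. The excess was 63.7 points at AI427809, 47.2 at B3galt1, 56.8 at Myst4, 55.9 at Wdr20a, 48.8 at Inhbb, 48.0 at Mtap6, 27.2 at Hamp2 and 40.8 at Camk1d. At Camk1d the F1 sons, with 39.0%, and daughters, with 31.0%, both lay below the B6 sires' 67.9%, while at Myst4 the daughters' 82.1% lay above the sires' 79.5%. These windows were picked for a large B6 difference, so that the excess may be overstated. The C3 parents, which did not pick them, exceeded the F1 difference by 58.9 points at AI427809, 41.4 at Myst4, 57.1 at Wdr20a, 52.6 at Inhbb, 55.3 at Mtap6, 24.8 at Hamp2 and 34.3 at Camk1d, each called, but by 15.1 points at B3galt1 with a limma adjusted p of 0.532. None of the 12 largest windows with higher B6 dams passed this test with the B6 parents. With the C3 parents the window at Pik3c2g did, with a C3 difference minus F1 difference of -22.1 points (limma adjusted p = 0.0327), and the others did not.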

How the results depend on the processing

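The B6 calls numbered 1478 in the main test and stayed within 1.5 times of that in 16 of 20 settings, among them edgeR's quasi-likelihood test (1502), 100 counts per window (1073) and quantile normalization (1474). A minimum difference of 10 points gave 3389 and of 30 points 345, 3 CpGs per window gave 2469, and 1000-bp windows gave 925. The share higher in dams lay between 58.8 and 67.6% throughout. Without each B6 animal in turn 1334 to 1537 windows were called, and without each C3 animal 1756 to 2139 of the C3 windows (2151 with all). DMCs, 8060 in the main test, were 12555 at p under 1e-04 and 3183 with smoothing over 250 bp, and DMRs, 140, were 223 and 180. With fewer animals these fell to 4244 to 5505 DMCs, by over 1.5 times without sire 1 or 2 or dam 1 or 3, and to 75 to 90 DMRs whichever animal was left out. Of 46 named windows, 41 had the same outcome as in the main test in every setting that tested them. Among these 41, the window at Gm4956 was called in no setting. The calls at Alb, Cyp7b1, Foxa3, Me1 and Pnpla3 were lost in at least 1. No window called in the main test changed direction. Genes with calls numbered 8 to 13 in the female-predominant list and 9 to 13 in the male-predominant list.

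The replicate number as a block gave 1488 windows. Deviations of sires and dams with the same number correlated at 0.0128, 0.0152 and 0.0007 across windows. Sires 1 and 2 correlated best with the dam of their number, and sire 3 with dam 1 (0.0113). Pairs of unlike number lay between -0.0246 and 0.0113. Correlations this near 0 cannot show whether a shared number means more than a label. Depth limits what was tested: windows with under 30 counts in any parent or under 5 CpGs gave no result, and differences too small for these counts were not detectable.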
